A study of Homo sapiens with 6 samples.

Results

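The genes described here make up the protein folding system of the endoplasmic reticulum (ER), the compartment in which secreted and membrane proteins are made. The list has 43 genes in 6 roles: 10 chaperones of the heat shock protein type and their co-factors, 2 lectin chaperones, 7 disulfide isomerases, oxidases and a prolyl isomerase, 4 genes of unfolded protein response (UPR) signalling, 10 genes of ER-associated degradation, and 10 genes of the translocation channel and signal peptidase. The genes were chosen by name, as were the related lists below, but with earlier results of these data known. Shares of the list set beside all genes or beside related lists are therefore descriptions and no independent support. Each gene was read from the probe set with the highest mean over all 6 arrays, among probe sets annotated to a single gene. Of the 43 genes, 41 had such a probe set and 40 passed the filter on dim probe sets, out of 13738 genes tested in all. DERL3, a member of the derlin family of degradation factors, was left out by that filter, with a brightest probe set at 47.5, 36.9 and 50.2 on the MIST1, GFP control and parental arrays of HGC-27 and at 46.6, 46.9 and 65.6 on those of AGS. SYVN1, the ubiquitin ligase of ER-associated degradation, has only a probe set shared with another gene, and no single-gene probe set is listed for the channel subunit SEC61G, so these genes have no value here.

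New proteins enter the ER through the Sec61 channel, lose their signal peptide there, and fold with the help of chaperones such as BiP and of enzymes that form disulfide bonds. Proteins that fail to fold are taken back to the cytosol and degraded. When unfolded proteins accumulate, the membrane sensors encoded by ATF6, ERN1 and EIF2AK3 start the UPR, in which cleaved ATF6 and spliced XBP1 act as transcription factors that raise genes for chaperones, isomerases and degradation factors, and EIF2AK3 slows translation and leads to ATF4 and DDIT3. In zymogenic cells of the stomach and acinar cells of the pancreas this system is very active, and MIST1 is a basic helix-loop-helix transcription factor of those same secretory cells.

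The study asked which genes are raised by MIST1 in established human gastric cancer lines. HGC-27, an undifferentiated carcinoma line, and AGS, an adenocarcinoma line, were each measured under 3 conditions. MIST1 cells received, by nucleofection, 3 µg of MIST1 plasmid and 1.5 µg of a GFP plasmid. GFP control cells received 3 µg of empty vector in its place and the same GFP plasmid, and parental cells were untransfected. Both transfected populations were sorted for GFP at 24 h and then grown for a further 24 h before RNA was taken, whereas no label says that parental cells were sorted. Transfection was transient, and the labels give neither the species of the MIST1 sequence nor its level in the sorted cells. Each line and condition has 1 array, so the 2 lines are the only replicates of a condition, nothing says how far 2 cultures of a line would differ, and p-values measure the spread between these single arrays.

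The probe set of BHLHA15, the gene that encodes MIST1, was no higher on the arrays labelled MIST1 than on the GFP controls. It read 58.7, 61.9 and 41.1 on the MIST1, GFP control and parental arrays of HGC-27, and 72.5, 75.9 and 66.3 on those of AGS. Whether it reads the construct is not known, so neither the labels nor the MIST1 level is checked by it. RAB3D, a vesicle GTPase and known MIST1 target, read 1783 with MIST1, against 504 in the GFP control, in HGC-27, and 1308 against 539.5 in AGS. The parental arrays stood apart in 18S ribosomal, nuclear and mitochondrial RNA. The middle probe set for 18S ribosomal RNA was between 46.8 and 52.7 on the 4 transfected arrays, against 371 on the HGC-27 parental and 1142 on the AGS parental array. It had the largest contrast, since the MIST1, GFP control and parental arrays of HGC-27 read 99.1, 109 and 141 at the 5′ probe set. They read 812, 776 and 1315 at the 3′ one. The middle probe set of the ribosomal control M27830 went the other way in HGC-27, at 2080, 2250 and 1514, while its 5′ and 3′ ones were highest on parental arrays. The 3′ over 5′ ratios were 0.826 to 0.883 for GAPDH and 0.968 to 1.05 for ACTB. The nuclear RNA MALAT1 was between 324 and 529 on transfected arrays, against 1566 and 3685 on these parental arrays, and mitochondrial COX3 was between 62.2 and 71.2, against 456 and 376. HGC-27 arrays were low in all 5 epithelial markers measured, which were lower than in AGS with a median log2 difference of -7.83, and 1 of 4 leukocyte and 1 of 3 endothelial markers passed the filter.

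ATF6 and XBP1 act on chaperone genes through short promoter elements, and the promoter windows of the listed genes were searched for them so that the responses below can be set beside the sequence. The ER stress response element (ERSE) was written as CCAAT, then 9 of any base, then CCACG, and ERSE-II as ATTGG, any base, CCACG, each on both strands. Windows of 300 bases, 250 before the transcription start and 50 from it, came from RefSeq (GRCh38.p14) and were found for 39 of the 43 genes. An ERSE was matched in 8 of these genes, namely HSPA5, HSP90B1, CRELD2, CALR, CANX, PDIA6, ERO1B and XBP1, beside 0.0916% of all 27305 genes with a window (0.0769% of all 35116 windows). ERSE-II was matched in 3 genes, HERPUD1, HYOU1 and SDF2L1, and in 0.0696% of all genes with a window. No listed gene held both, so no match of one overlapped the other. CATATG, an E-box form bound by MIST1, was matched in SEC61A1 and SSR3 and in 3.72% of all genes with a window. A match describes these letters only, and DERL1, DERL3, PDIA3 and SPCS1 had no window.

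Shown here are the 250 bases before the start, 5′ to 3′ on the gene's strand, of 5 genes whose values carry the results, with each ERSE or ERSE-II match in capitals. They lie at chr9:125241344-125241593 (minus strand) for HSPA5, chr12:103930160-103930409 (plus) for HSP90B1, chr22:21642052-21642301 (plus) for SDF2L1, chr22:28800570-28800819 (minus) for XBP1 and chr16:56931892-56932141 (plus) for HERPUD1.
HSPA5: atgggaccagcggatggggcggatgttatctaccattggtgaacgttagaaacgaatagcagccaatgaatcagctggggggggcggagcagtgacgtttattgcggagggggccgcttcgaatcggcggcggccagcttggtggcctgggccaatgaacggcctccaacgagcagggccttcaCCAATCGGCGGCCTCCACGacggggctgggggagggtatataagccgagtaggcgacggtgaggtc
HSP90B1: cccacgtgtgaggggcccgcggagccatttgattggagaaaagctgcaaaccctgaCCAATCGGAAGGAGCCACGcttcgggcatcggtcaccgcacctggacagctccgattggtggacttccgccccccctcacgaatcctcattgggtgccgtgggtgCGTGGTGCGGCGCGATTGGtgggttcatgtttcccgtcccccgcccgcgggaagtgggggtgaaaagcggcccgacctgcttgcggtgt
SDF2L1: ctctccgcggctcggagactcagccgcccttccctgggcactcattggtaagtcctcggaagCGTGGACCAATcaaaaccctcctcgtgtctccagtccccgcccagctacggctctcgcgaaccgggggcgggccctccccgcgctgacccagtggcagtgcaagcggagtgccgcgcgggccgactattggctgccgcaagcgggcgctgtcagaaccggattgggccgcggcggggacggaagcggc
XBP1: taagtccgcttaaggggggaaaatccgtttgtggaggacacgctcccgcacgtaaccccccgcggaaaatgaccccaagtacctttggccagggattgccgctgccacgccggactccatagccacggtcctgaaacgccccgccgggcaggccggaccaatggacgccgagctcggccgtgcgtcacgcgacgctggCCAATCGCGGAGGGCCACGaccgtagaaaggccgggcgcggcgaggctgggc
HERPUD1: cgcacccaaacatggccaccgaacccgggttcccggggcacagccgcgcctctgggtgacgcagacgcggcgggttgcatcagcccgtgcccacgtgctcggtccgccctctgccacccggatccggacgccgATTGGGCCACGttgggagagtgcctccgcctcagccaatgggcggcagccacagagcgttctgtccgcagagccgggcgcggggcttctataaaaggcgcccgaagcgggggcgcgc
HSP90B1 holds 2 matches, the second of them on the opposite strand, and in HSPA5 and XBP1 the match ends within 50 bases of the start. SDF2L1 and HERPUD1 hold the shorter ERSE-II.

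MIST1 against the GFP control, the comparison that carries the study's question, gave small differences across the folding system. None of the 40 genes passed the test (limma, adjusted p under 0.05), as was so for 0 of 13738 genes (0%), and at an unadjusted p under 0.05 there were 181 genes, of which DERL2 was the 1 listed gene. RAB3D, with the large difference given above, did not pass either, so the lack of calls does not show that the listed genes are unchanged. The median log2 difference of the 40 genes was 0.01, with 0.02 in HGC-27 and -0.01 in AGS, beside -0.02 over all genes. No listed gene was 1.5-fold higher in both lines, which 0.211% of all genes were, or 1.5-fold lower in both, which 0.0218% were. The highest ratios of MIST1 to GFP control were 1.23 in HGC-27, for DERL2, and 1.26 in AGS, for ERO1B, and the lowest values were 1.18-fold and 1.13-fold lower, both for DNAJC10. Of 19 genes at least 1.5-fold above both controls in both lines, 0 were listed genes.

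**Figure D1:**
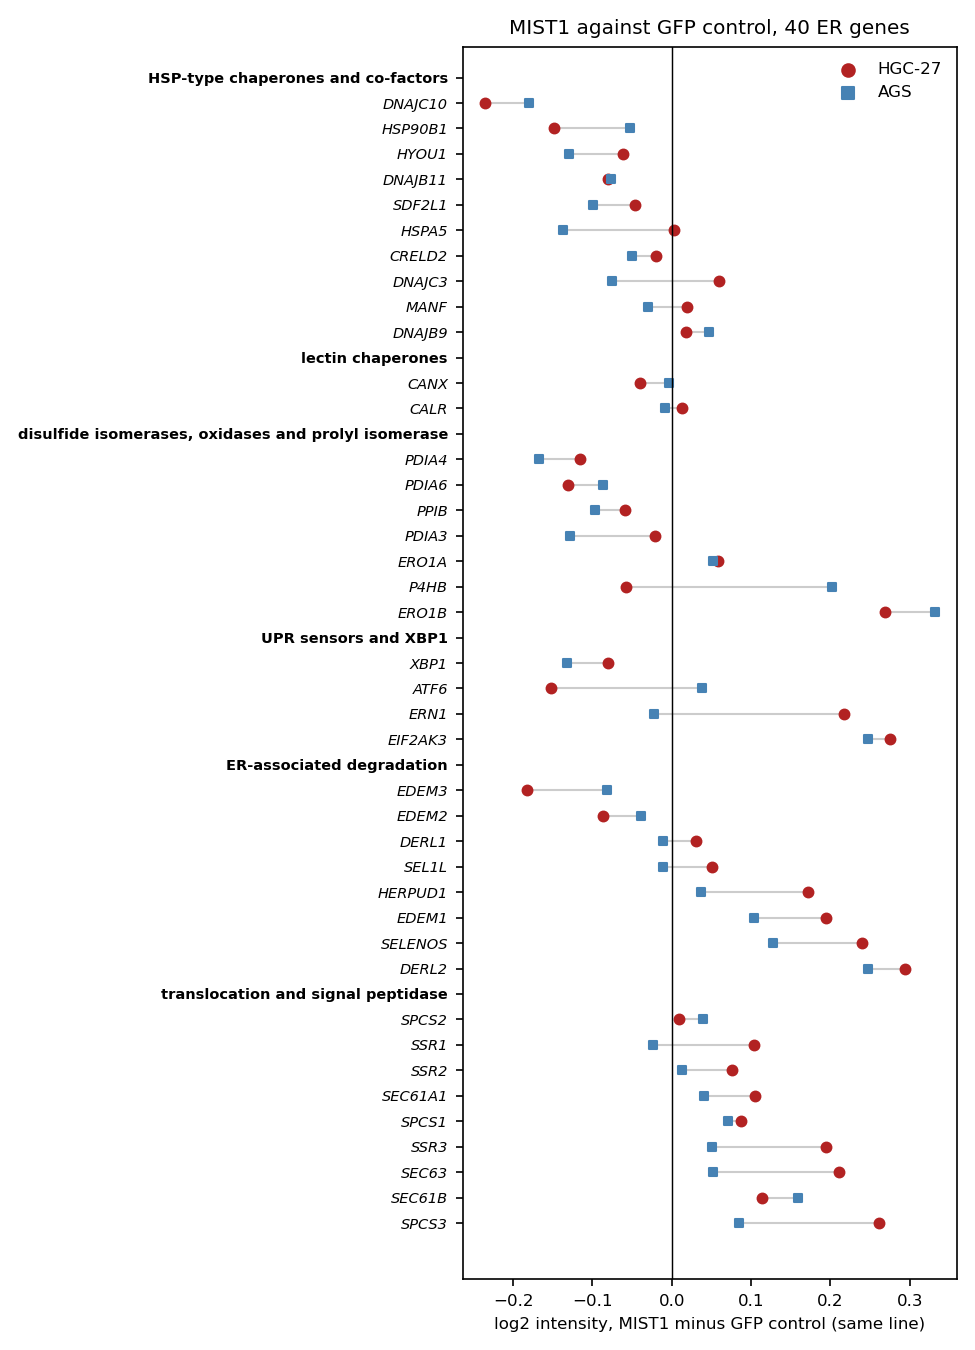
Difference in log2 intensity between the MIST1 and the GFP control array of the same line for the 40 genes, grouped by role, with HGC-27 as circles and AGS as squares (1 array per condition and line, so no error). The points run from -0.24 to 0.33, and 8 of the 9 translocation genes lie to the right of 0 in both lines.

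Signs within the roles were uneven. Of the 40 genes, 16 were higher in both lines, which 24.3% of all genes were, and 14 were lower in both, which 32.6% were. Among 9 translocation and signal peptidase genes 8 were higher in both lines, with a median of 0.08, and among 10 chaperones and co-factors of the heat shock protein type 6 were lower in both, with a median of -0.07. None of these passed the test. Outside the list, 37 other genes of translocation, membrane insertion and N-glycosylation were tested. Of those, 9 were higher and 15 lower in both lines, with a median of -0.03. The count of 8 also depends on the probe sets used. The 2 other SPCS2 probe sets had the opposite sign, at -0.14 and -0.01, and only 2 of 5 other SSR1 probe sets shared the sign. SEC61B, the small subunit of the channel, read 7871 with MIST1, against 7274 in the GFP control, in HGC-27, and 6187 against 5541 in AGS. SPCS3, a signal peptidase subunit, read 2615 against 2182 in HGC-27 and 2294 against 2163 in AGS. SEC61B differed by 0.14 (SE 0.06) on the log2 scale and SPCS3 by 0.17 (SE 0.11), both at a limma adjusted p of 1.

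Genes of other roles also leaned higher in both lines. DERL2, a derlin of the degradation channel, read 780.1 with MIST1, against 636 in the GFP control, in HGC-27, and 1381 against 1164 in AGS. SELENOS, a selenoprotein that recruits the ATPase p97 to the ER, read 2355 against 1995 in HGC-27 and 2642 against 2419 in AGS. EIF2AK3, the sensor kinase PERK, read 729 against 602 in HGC-27 and 854 against 719 in AGS. For these genes each MIST1 array lay above the GFP control of its line. Over both lines together the MIST1 and GFP control values overlapped for DERL2 and SELENOS and did not for EIF2AK3. ERO1B, an oxidase that recharges disulfide isomerases, was dim, at 75.1 against 62.3 in HGC-27 and 33.5 against 26.6 in AGS. The log2 differences were 0.27 (SE 0.11) for DERL2, 0.18 (SE 0.09) for SELENOS, 0.26 (SE 0.14) for EIF2AK3 and 0.30 (SE 0.22) for ERO1B, each with a limma adjusted p of 1.

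Genes that leaned lower in both lines included chaperones, isomerases, XBP1 and EDEM3. DNAJC10, an ER reductase with a J domain, read 839.6 with MIST1, against 988 in the GFP control, in HGC-27, and 1396 against 1582 in AGS, a difference of -0.21 (SE 0.14). PDIA4, a disulfide isomerase, read 1304 against 1413 in HGC-27 and 1588 against 1783 in AGS, a difference of -0.14 (SE 0.14). XBP1 read 1607 against 1699 in HGC-27 and 2172 against 2379 in AGS, a difference of -0.11 (SE 0.10). The limma adjusted p of each was 1. EDEM3, a mannosidase that marks glycoproteins for degradation, read 504 against 572 in HGC-27 and 583 against 616.5 in AGS, a difference of -0.13 (SE 0.13), but its 2 other probe sets were at 0.0016 and 0.05. PDIA6 differed by -0.11 (SE 0.12), which turned to 0.03 without the HGC-27 MIST1 array. HSPA5 differed by -0.07 (SE 0.12), ATF6 by -0.06 (SE 0.14) and ERN1 by 0.10 (SE 0.33).

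In the GFP control against parental cells, which differ by nucleofection, GFP, empty vector, sorting and regrowth together and have 1 parental array a line, the differences of the chaperones were larger. The parental arrays also differ in the 18S, MALAT1 and COX3 values given above, and the part of these in the results was not tested. None of the 40 genes passed the test across both lines (limma, adjusted p under 0.05), while 34 genes (0.247%) did among all, 18 higher and 16 lower, or 29 and 46 after quantile normalization. Of the 40, 15 had an unadjusted p under 0.05, against 3165 of 13738. Their median was -0.09 on the log2 scale, with -0.20 in HGC-27 and -0.02 in AGS, beside 0.07 over all genes, with 0.13 in HGC-27 and 0 in AGS. Lower in both lines were 20 of the 40, a share of all genes of 23.4%, and 9 were higher in both, a share of 37.1%. In bulk RNA, fewer cells of a kind and less RNA per cell cannot be told apart.

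**Figure D2:**
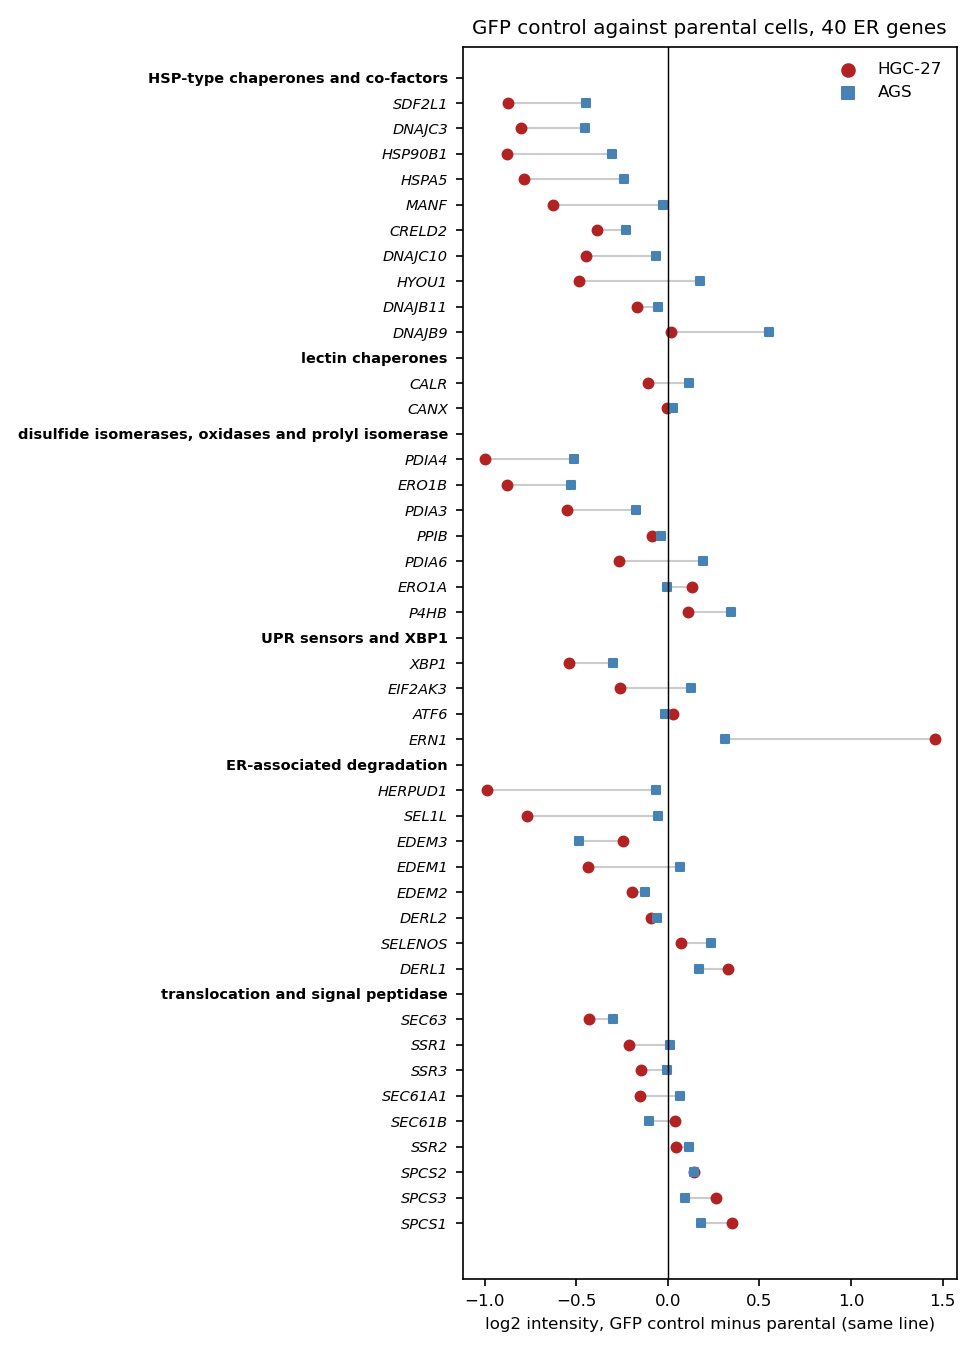
Difference in log2 intensity between the GFP control and the parental array of the same line for the 40 genes by role, with HGC-27 as circles and AGS as squares (1 array per condition and line, so no error). Most chaperones, PDIA4 and XBP1 lie to the left of 0 in both lines and farther left in HGC-27, while ERN1 lies far to the right in HGC-27.

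Chaperones of the heat shock protein type had the lowest median of any role, at -0.32, and 8 of 10 were lower in both lines. HSPA5, which encodes BiP, read 5882 in the GFP control, against 10136 in parental cells, in HGC-27, and 8952 against 10546 in AGS. HSP90B1, the Hsp90 of the ER, read 1173 against 2151 in HGC-27 and 2639 against 3253 in AGS, from a probe set of the _x_at type, which can also pick up related transcripts, as can those used for CALR and PDIA6. SDF2L1, a partner of BiP and J proteins, read 1461 against 2679 in HGC-27 and 1409.5 against 1918 in AGS. For HSPA5 and SDF2L1 both GFP control values lay below both parental values, whereas for HSP90B1 the AGS control lay above the HGC-27 parental array. DNAJC3, a co-chaperone that also inhibits the kinase PERK, read 633 against 1103 in HGC-27 and 1248 against 1708 in AGS, which overlap in the same way. The log2 differences were -0.51 (SE 0.12) for HSPA5, -0.59 (SE 0.17) for HSP90B1, -0.66 (SE 0.13) for SDF2L1 and -0.63 (SE 0.13) for DNAJC3. None passed the threshold, with limma adjusted p-values of 0.0888, 0.118, 0.0683 and 0.0706 in that order. DNAJC3 has 3 other probe sets that passed the filter, and these were lower by more, with log2 differences between -1.82 and -0.93 in HGC-27 and between -1.81 and -1.47 in AGS.

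Among the enzymes of disulfide formation PDIA4 stood lowest. It read 1413 in the GFP control, against 2821 in parental cells, in HGC-27, and 1783 against 2543 in AGS, so both control values lay below both parental values. Its difference was -0.75 (SE 0.14), with a limma adjusted p of 0.0625. Its other probe set gave -0.62 in HGC-27 and -0.0031 in AGS. ERO1B read 62.3 against 115 in HGC-27 and 26.6 against 38.3 in AGS, a difference of -0.70 (SE 0.22). P4HB, the main disulfide isomerase, leaned the other way, with 5707 in the GFP control against 5297 in parental cells in HGC-27 and 7498 against 5900.1 in AGS, a difference of 0.23 (SE 0.11), but its 2 other probe sets gave -0.16 and -0.04, so the direction rests on the probe set. The lectin chaperones calnexin and calreticulin, which hold glycoproteins during folding, were level in their brightest probe sets, with differences of 0.01 (SE 0.05) for CANX and 0.00 (SE 0.07) for CALR. The 3 other CANX probe sets were lower, between -0.44 and -0.17. A dimmer CALR probe set was lower by more, at -1.06 in HGC-27 and -0.87 in AGS, so the probe sets of this gene disagree.

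Of the UPR signalling genes, XBP1 and ERN1 differed in opposite directions. XBP1 read 1699 in the GFP control, against 2468 in parental cells, in HGC-27, and 2379 against 2931 in AGS. ERN1, the sensor kinase and nuclease IRE1 that splices XBP1 RNA, read 252 against 92.0 in HGC-27 and 110.1 against 88.6 in AGS. The ERN1 level in the HGC-27 control was thus 2.74-fold the parental level, and the AGS control also lay above both parental arrays. The differences were -0.42 (SE 0.10) for XBP1 and 0.88 (SE 0.33) for ERN1, with limma adjusted p-values of 0.0837 and 0.181. Of 2 dimmer ERN1 probe sets 1 gave 0.35, from 1.12 in HGC-27 and -0.43 in AGS. The other gave -0.44, from -0.49 in HGC-27 and -0.38 in AGS. The higher ERN1 value in AGS thus rests on the probe set used. ATF6 read 356 against 349.8 in HGC-27 and 468 against 473 in AGS, and EIF2AK3 read 602 against 722 in HGC-27 and 719 against 659.9 in AGS. Neither differed beyond its SE, with 0.01 (SE 0.14) for ATF6 and -0.07 (SE 0.14) for EIF2AK3. A dimmer ATF6 probe set was lower, at -0.89 in HGC-27 and -0.88 in AGS, while its remaining probe sets lay between -0.09 and 0.18.

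**Figure D3:**
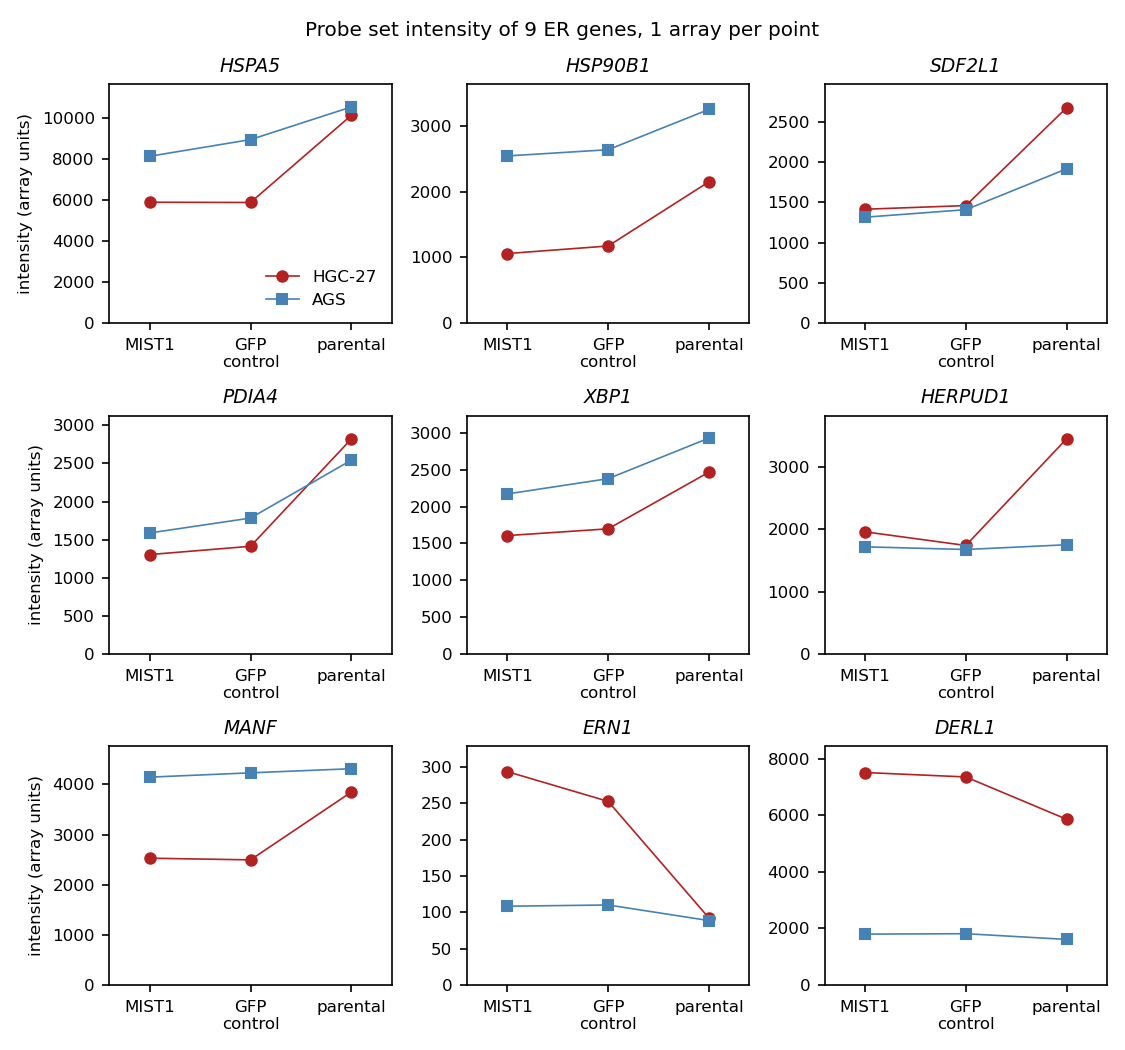
Deposited intensity of 9 genes on the MIST1, GFP control and parental arrays (linear axis from 0, 1 array per point, lines join the arrays of a cell line), with HGC-27 as circles and AGS as squares. HSPA5, HSP90B1, SDF2L1, PDIA4 and XBP1 are highest on the parental array of both lines, HERPUD1 and MANF on that of HGC-27 with AGS nearly flat, and MIST1 and GFP control values lie close together throughout.

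Translocation and degradation genes were mixed in this comparison. SPCS1, a signal peptidase subunit, read 4932 in the GFP control, against 3872 in parental cells, in HGC-27, and 5753 against 5078 in AGS. DERL1, a derlin, read 7351 against 5855 in HGC-27 and 1813 against 1611 in AGS. DNAJB9, a J protein that restrains IRE1, read 941 against 929 in HGC-27 and 1220.4 against 831 in AGS. Each control array lay above the parental array of its line, by 0.26 (SE 0.07) for SPCS1, 0.25 (SE 0.08) for DERL1 and 0.29 (SE 0.16) for DNAJB9, and none passed the test. For DERL1 the 2 other probe sets went the other way in both lines, at -0.13 and -0.07 over the lines, while SPCS1 had no other. The 2 other DNAJB9 probe sets were lower in HGC-27, at -0.13 and -0.20, and higher in AGS, at 0.28 and 0.42. SEC63, which couples the channel to BiP, leaned lower with -0.36 (SE 0.11).

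The fold changes were unevenly shared between the lines. In HGC-27, 9 of the 40 genes were at least 1.5-fold lower in GFP control over parental cells, beside 5.28% of all genes, and 1, ERN1, was at least 1.5-fold higher, beside 13.2%. In AGS, 0 were at least 1.5-fold lower, beside 6.01% of all genes, and 0 were at least 1.5-fold higher, beside 7.97%. Hence 0 were past 1.5-fold in both lines in either direction, where 1.55% of all genes were lower and 3.12% higher. The 9 genes in HGC-27 were PDIA4, HERPUD1, ERO1B, HSP90B1, SDF2L1, DNAJC3, HSPA5, SEL1L and MANF.

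Genes with an ERSE or ERSE-II match were among these. Of the 11 listed genes with a match, 11 were lower in HGC-27 GFP control over parental cells, with log2 differences between -0.99 and -0.01 and a median of -0.54. In AGS 7 of these 11 were lower, with a median of -0.23. The 26 tested genes whose window held neither element had a median of -0.15 in HGC-27, where 16 were lower, and of -0.01 in AGS, where 15 were lower. PDIA4, DNAJC3, SEL1L and MANF, all lower in HGC-27, held neither exact match. For MIST1 against the GFP control the medians of the 11 genes were -0.04 in HGC-27 and -0.05 in AGS. Those of the 26 genes with neither element were 0.06 in HGC-27 and 0.04 in AGS.

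Whether the lines differed in their response was tested directly, as the change of the transfected arrays (GFP control and MIST1) over the parental array in HGC-27 minus that in AGS. Of the 40 genes 9 passed (limma, adjusted p under 0.05), where 1394 genes (10.1%) passed among all, and 8 of the 9 went lower in HGC-27 than in AGS, where 360 genes (2.62%) did. Over all genes the calls leaned the other way, with 1034 higher and 360 lower in HGC-27, though after quantile normalization the split was 501 to 480 while that of the listed genes was 1 to 9. The median was -0.17 for the 40 genes and 0.12 for all genes, and after quantile normalization -0.28 and 0.00.

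**Figure D4:**
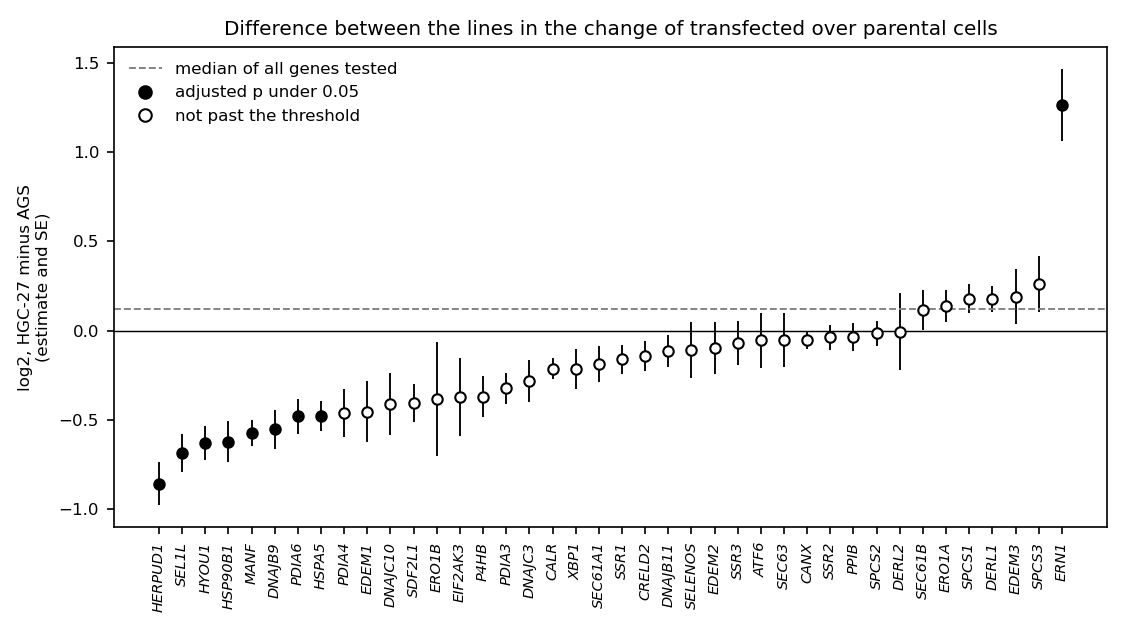
Estimate and SE of the difference between the lines (HGC-27 minus AGS) in the log2 change of transfected over parental cells for the 40 genes in order, with filled points past the threshold and a dashed line at the median of all genes tested. ERN1 is the 1 filled point above 0, and 8 filled points from HERPUD1 to HSPA5 lie between -0.86 and -0.48.

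HERPUD1, a membrane factor of the degradation complex, had the lowest value. It read 1961 with MIST1 and 1742 in the GFP control, against 3456 in parental cells, in HGC-27, and 1720.5 and 1677 against 1754 in AGS. The transfected HGC-27 arrays lay far below their parental array, while the 3 AGS arrays were nearly level. The difference between the lines was -0.86 (SE 0.12, limma adjusted p = 0.02). SEL1L, the scaffold that holds this degradation complex together, showed the same shape, with 979 and 945 against 1608 in HGC-27 and 921 and 928 against 961 in AGS, a difference of -0.69 (SE 0.11, adjusted p = 0.0237). Of 3 other SEL1L probe sets 2 had the same sign, and HERPUD1 had no other that passed the filter.

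The chaperones followed. MANF, a secreted survival factor kept in the ER by BiP, read 2528 with MIST1 and 2495 in the GFP control, against 3847 in parental cells, in HGC-27, and 4144 and 4230.5 against 4312 in AGS, a difference of -0.57 (SE 0.07, limma adjusted p = 0.0167). HYOU1, the ER member of the Hsp110 family and a nucleotide exchange factor of BiP, read 3434 and 3585 against 5015 in HGC-27 and 3789 and 4143 against 3662 in AGS, a difference of -0.63 (SE 0.10, adjusted p = 0.0223). In AGS the transfected HYOU1 values lay above the parental value, in HGC-27 below it. HSPA5 read 5895 and 5882 against 10136 in HGC-27 and 8139 and 8952 against 10546 in AGS, so it was lower in both lines and by more in HGC-27, a difference of -0.48 (SE 0.08, adjusted p = 0.0283). HSP90B1 differed by -0.62 (SE 0.12, adjusted p = 0.0312), though a dimmer probe set of it gave -0.10. PDIA6, a disulfide isomerase that also binds IRE1, read 3805 and 4166 against 5010.1 in HGC-27 and 5962 and 6329.7 against 5546 in AGS, a difference of -0.48 (SE 0.10, adjusted p = 0.0366) whose sign 3 other probe sets shared. The dimmest PDIA6 probe set was lower on transfected arrays in both lines, at -0.70 in HGC-27 and -0.47 in AGS. Its direction in AGS thus depends on the probe set.

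DNAJB9 and ERN1 had other shapes. DNAJB9 was level in HGC-27, at 953 with MIST1 and 941 in the GFP control against 929 in parental cells, and higher in AGS, at 1260.2 and 1220.4 against 831, which gave -0.55 (SE 0.11, limma adjusted p = 0.0348). ERN1 read 293 and 252 against 92.0 in HGC-27 and 108 and 110.1 against 88.6 in AGS, a difference of 1.26 (SE 0.20, adjusted p = 0.0243). Of 2 dimmer ERN1 probe sets, 1 gave 1.44 and the other -0.06. XBP1 differed by -0.21 (SE 0.11), ATF6 by -0.05 (SE 0.15) and EIF2AK3 by -0.37 (SE 0.22), and none of these passed.

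The 9 calls rest on parental cells with 1 array a line and on the GFP control and MIST1 arrays taken as replicates. Without any 1 of the 4 transfected arrays 0 of them, and 0 of all genes, passed, and without a parental array the comparison cannot be fitted. The 18S, MALAT1 and COX3 values were higher on the parental array in both lines, here too with their part not tested.

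MIST1 against parental cells shares its arrays with both comparisons above. Of the 40 genes 3 passed (limma, adjusted p under 0.05), where 454 genes (3.3%) passed among all, and all 3 fell, where 161 genes (1.17%) did. PDIA4, at 1304 against 2821 in HGC-27 and 1588 against 2543 in AGS, fell by 0.90 on the log2 scale (SE 0.14, adjusted p = 0.041), and it was the 1 listed gene at least 1.5-fold lower in both lines. Its other probe set was lower by less, at -0.81 in HGC-27 and -0.17 in AGS, and so was not 1.5-fold lower in AGS. SDF2L1, at 1415 against 2679 and 1316 against 1918, fell by 0.73 (SE 0.13, adjusted p = 0.0443). XBP1, at 1607 against 2468 and 2172 against 2931, fell by 0.53 (SE 0.10, adjusted p = 0.0461). For all 3 genes both MIST1 values lay below both parental values. HSPA5 at -0.58 (SE 0.12), DNAJC3 at -0.64 (SE 0.13) and HSP90B1 at -0.69 (SE 0.17) came close, with adjusted p-values of 0.0589, 0.0529 and 0.0719. The largest values of the other sign, ERN1 at 0.98 (SE 0.33), SPCS3 at 0.35 (SE 0.11), SPCS1 at 0.34 (SE 0.07) and SELENOS at 0.34 (SE 0.09), did not pass. The 2 other ERN1 probe sets gave -0.14 and 0.45, and the 2 other SPCS3 probe sets gave -0.26 and 0.48. With no floor, a floor at the median, no filter, no variance trend or no block for cell line, 0 listed genes passed.

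Genes of related pathways outside the list had medians between 0.01 and 0.15 in the GFP control over parental cells. Among 28 other folding genes tested, the median was 0.04, with 10 higher and 10 lower in both lines, among 24 other degradation genes 0.15, with 12 and 4, and among 37 other genes of translocation, membrane insertion and N-glycosylation 0.07, with 16 and 10. The 17 other UPR signalling genes had a median of 0.01, with 5 and 5. Cytosolic heat shock genes, 8 tested, had a median of 0.03, with 4 and 3. None of these passed in that comparison. FKBP11, a prolyl isomerase of secretory cells, and MLEC, a glycan-binding ER protein, leaned lower, by -0.53 (SE 0.20) and -0.37 (SE 0.12). They do not stand for the other folding genes, of which 16 had values above 0 and 12 below, up to 0.67.

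In the list of other UPR signalling genes, DDIT3, TMBIM6 and CREB3 passed for MIST1 over parental cells and CHAC1, TRIB3 and ATF4 for the difference between the lines. That is 17.6% of the 17 genes in each, beside 3.3% and 10.1% of all genes. For MIST1 over parental cells, 0 of all genes passed with a floor at the median, no filter, no variance trend or no block. The calls between the lines rest, like the 9 above, on 1 parental array a line. DDIT3, which encodes the stress factor CHOP, read 302 with MIST1 and 324 in the GFP control, against 733 in parental cells, in HGC-27, and 220.4 and 239 against 453 in AGS. All transfected values lay below all parental values, and DDIT3 fell by 1.16 with MIST1 over parental cells (SE 0.14, limma adjusted p = 0.0385), with -1.05 (SE 0.14) for the GFP control. CHAC1, a glutathione-degrading enzyme induced through ATF4, read 200.1 and 201 against 716 in HGC-27 and 442 and 438 against 606 in AGS, and its response differed between the lines by -1.37 (SE 0.14, adjusted p = 0.00961). ATF4 and the ATF4 target TRIB3 also differed between the lines, by -0.33 (SE 0.07, adjusted p = 0.0388) and -0.67 (SE 0.14, adjusted p = 0.0375). TMBIM6, an ER membrane protein that protects from cell death, and CREB3, a membrane-bound transcription factor, rose with MIST1 over parental cells, by 0.46 (SE 0.07, adjusted p = 0.0408) and 0.85 (SE 0.13, adjusted p = 0.0419). Against the GFP control none of the 17 genes passed, and CREB3 differed by 0.23 (SE 0.13) and DDIT3 by -0.11 (SE 0.14).

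More genes passed between the lines than between any conditions. Of the 40 genes 23 passed between HGC-27 and AGS (limma, adjusted p under 0.05), 7 higher and 16 lower in HGC-27, where 8303 genes (60.4%) passed among all, so the share of the list is close to the background. After quantile normalization the split was 10 higher and 13 lower. Here the 3 arrays of a line, which differ in condition, served as its replicates. All HGC-27 arrays lay above all AGS arrays for 6 of the 40, beside 27.4% of all genes, and below for 14, beside 34.3%. The median was -0.17 for the list and -0.06 for all genes.

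**Figure D5:**
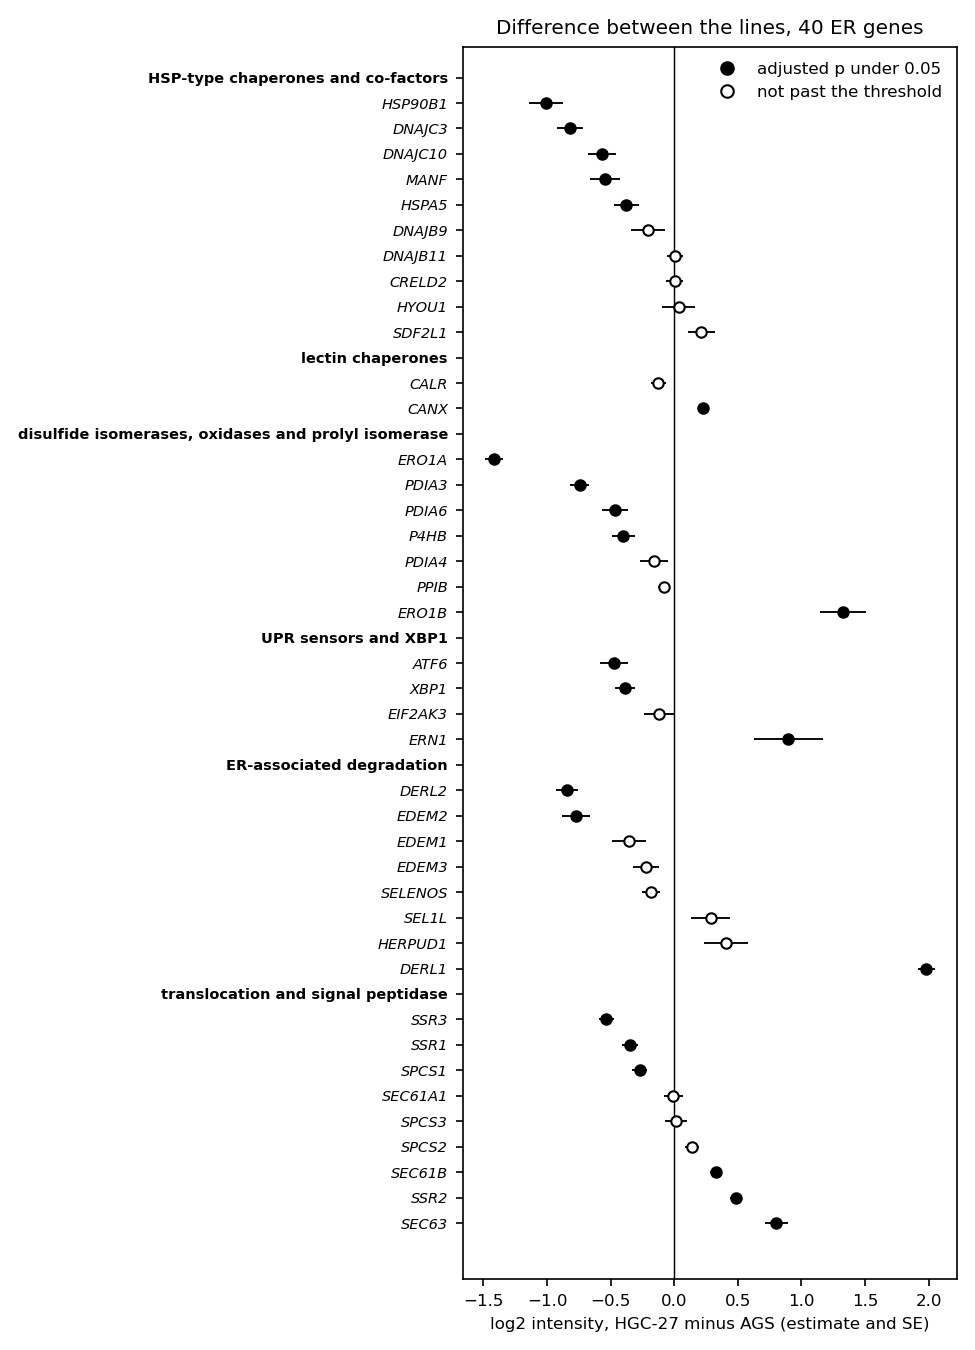
Estimate and SE of the log2 difference between HGC-27 and AGS over the 3 conditions for the 40 genes by role, with filled points past the threshold. DERL1 and ERO1B lie farthest to the right and ERO1A and HSP90B1 farthest to the left.

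In the probe sets used, the paralogs of 2 gene families went opposite ways. DERL1 read 7508, 7351 and 5855 on the MIST1, GFP control and parental arrays of HGC-27, against 1799, 1813 and 1611 in AGS, and DERL2 read 780.1, 636 and 677, against 1381, 1164 and 1214. No array of a line overlapped the other line for either gene. DERL1 was higher in HGC-27 by 1.98 (SE 0.07, limma adjusted p = 1.12e-06), and DERL2 was at -0.85 (SE 0.09, adjusted p = 0.000207). The 2 other DERL1 probe sets gave 2.11 and 2.31, but the 1 other of DERL2 gave 0.08, so the lower DERL2 value rests on 1 probe set. The oxidases behaved likewise: ERO1A read 1562, 1500.0 and 1369 in HGC-27, against 4039, 3895 and 3903 in AGS, and ERO1B read 75.1, 62.3 and 115, against 33.5, 26.6 and 38.3. ERO1A was at -1.42 (SE 0.07, adjusted p = 5.62e-06), and its 2 other probe sets gave -2.23 and -2.16. ERO1B was at 1.32 (SE 0.18), and its other probe set gave 0.62. However, ERO1B passed the filter on dim probe sets only through its HGC-27 arrays, all AGS values being under the limit of 50.53. Its place among the 7 genes that passed as higher in HGC-27 is therefore no independent result. Levels of different probe sets cannot be set against each other, so these are differences between lines within a gene only.

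Among chaperones, HSP90B1 at -1.01 (SE 0.14), DNAJC3 at -0.82 (SE 0.10), DNAJC10 at -0.57 (SE 0.11), MANF at -0.55 (SE 0.12) and HSPA5 at -0.38 (SE 0.10) passed as lower in HGC-27, and 0 of the 10 passed as higher, although 4 had values above 0. The HSPA5 direction depends on the probe set, since a dimmer one gave 0.85. Isomerases PDIA3 at -0.74 (SE 0.08), PDIA6 at -0.47 (SE 0.10) and P4HB at -0.40 (SE 0.09) were lower as well, as were ATF6 at -0.47 (SE 0.11) and XBP1 at -0.39 (SE 0.08). EDEM2, a mannosidase of the degradation pathway, read 248, 263 and 301 in HGC-27, against 441, 453 and 493 in AGS, at -0.77 (SE 0.11).

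In the channel the members split. SEC63 read 1204, 1041 and 1402 on the MIST1, GFP control and parental arrays of HGC-27, against 661, 638 and 785 in AGS, and SSR2 read 6544, 6210.0 and 6012, against 4616, 4575 and 4225. For both genes every HGC-27 array lay above every AGS array. SEC63 at 0.80 (SE 0.09), SSR2 at 0.48 (SE 0.05) and SEC61B at 0.33 (SE 0.05) were higher and SSR3 at -0.53 (SE 0.06), SSR1 at -0.35 (SE 0.06) and SPCS1 at -0.27 (SE 0.06) were lower in HGC-27. SSR1, SSR2 and SSR3 encode subunits of the translocon-associated protein complex, and for SSR1 the dimmest probe sets gave 3.74 and 1.69 in place of -0.35. CANX at 0.22 (SE 0.04) and ERN1 at 0.90 (SE 0.27) were the other genes higher in HGC-27, and for ERN1 this held on the transfected arrays while the parental arrays read 92.0 in HGC-27 and 88.6 in AGS. EIF2AK3 was at -0.12 (SE 0.12) and did not pass. Among the genes that passed, DNAJC10, ATF6, SSR3 and ERN1 also had other probe sets of the opposite sign, 2 of 4 for DNAJC10, 1 of 3 each for ATF6 and SSR3, and 1 of 2 for ERN1.

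Of the genes not yet described, none passed in any of these comparisons. CRELD2, an ER protein of the EGF domain type, read 2249 with MIST1, 2280.4 in the GFP control and 2978 in parental cells of HGC-27, and 2294, 2374 and 2784 in AGS, so the transfected arrays of both lines lay below both parental arrays. Its difference between the GFP control and parental cells was -0.31 (SE 0.08, limma adjusted p = 0.112). DNAJB11, a J protein that delivers clients to BiP, read between 2779 and 3301 over all 6 arrays, and the prolyl isomerase PPIB between 5710.1 and 6582. EDEM1, a mannosidase-like factor of degradation, read 409, 357 and 483 in HGC-27 and 563, 524 and 501 in AGS, with a difference between the lines in the response of -0.45 (SE 0.17, adjusted p = 0.129). The channel subunit SEC61A1 read between 2047 and 2277, and SPCS2, a signal peptidase subunit, between 3437 and 4235, and SPCS2 differed between the lines by 0.14 (SE 0.05, adjusted p = 0.0585).

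Of the 40 genes, 26 had a total of 57 other probe sets that passed the filter, and the sign of these was that of the probe set used for 39 of 57 in MIST1 against the GFP control, 33 in the GFP control against parental cells and 40 between the lines. For the difference between the lines in the response it was 34 of 57, and for the 9 genes that passed there 10 of 12 probe sets.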

How the data were processed

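RNA from 6 human gastric cancer cell samples (2 lines, 3 conditions, 1 sample each) was measured on one-colour Affymetrix arrays. The authors deposited 1 linear intensity per probe set and array, and per the series design text they used dChip. Background correction and scaling are not given in the sources used here. Array medians of the deposited intensity ran from 49.12 to 51.96, a log2 range of 0.08, within the limit of 0.1, so no scaling was added. Values were floored at their 25th percentile, 17.6, and taken to log2. Of 54675 probe sets, 41097 had 1 gene in the platform annotation, 1801 several and 11777 none listed, and 41043 symbols were updated through the gene ID. Probe sets needed at least 2 arrays above the median of all values, 50.53. The brightest probe set of each gene gave 13738 genes. A log2 change against a floored value is understated.

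Differences were fitted with limma 3.58.1 under R 4.3.3 (lmFit on cell line plus condition, eBayes with trend) over all 6 arrays, with 2 residual and 4.46 prior degrees of freedom. The difference between the lines in the response came from a second fit with an interaction term, with 2 and 4.22. P-values are two-sided, adjusted over all genes by Benjamini-Hochberg, with a threshold of 0.05. The additive fit assumes the same change in both lines. Arrays of a line correlated at 0.971 to 0.996, those of different lines at 0.692 to 0.719, so cell line was the block. The number of arrays limits the precision. Alternatives were no floor, a floor at the median, quantile normalization, no filter, the mean of a gene's probe sets, no variance trend, only the 4 arrays compared, no block, other fold limits, and leaving out each array. The test was tried on simulated data. Genes with full values were those that passed, the 5 with the largest changes of the same sign in both lines, in each direction, and UPR signalling genes. The members and lists were chosen with earlier results of these data known. Promoter windows are RefSeq's, and coordinates are those of GRCh38.p14.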

Additional observations from a re-analysis of the deposited data

Results flagged for a closer look

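In 9 genes the change of transfected over parental cells differed between the lines (limma interaction term, adjusted p under 0.05), where 10.1% of all genes did. As HGC-27 minus AGS on the log2 scale, the values were -0.86 for HERPUD1, -0.69 for SEL1L, -0.63 for HYOU1, -0.62 for HSP90B1, -0.57 for MANF, -0.55 for DNAJB9, -0.48 for PDIA6, -0.48 for HSPA5 and 1.26 for ERN1. In the probe sets used, HSPA5 and HSP90B1 were lower on all transfected arrays than on the parental array of the same line, HYOU1 and PDIA6 were lower in HGC-27 and higher in AGS, and for HERPUD1, SEL1L and MANF the AGS arrays were nearly level. The dimmest PDIA6 probe set was lower in both lines, at -0.70 in HGC-27 and -0.47 in AGS. Each line has 1 parental array, so a difference between the lines and a difference between these 2 parental samples cannot be told apart.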

How the results depend on the processing

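For MIST1 against the GFP control, 0 listed genes passed under every alternative run. The main test missed RAB3D too, so this does not show that the listed genes are unchanged. Genes called numbered 0, but 62 with only the 4 arrays compared and 1 to 59 when 1 array was left out, with 59 without either parental array. The median of 0.01 became -0.011 with the mean of all probe sets and -0.054 to 0.065 when 1 array was left out, and PDIA6 ranged from -0.24 to 0.028.

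For the GFP control against parental cells, 34 genes were called, but 0 with no floor, a floor at the median, no filter, no variance trend or no replicate block (cell line), 1 with the mean of all probe sets, 75 after quantile normalization and 911 with 4 arrays. Listed genes called were 0, but 9 with 4 arrays. With 1 array left out the counts ran from 64 to 5370 genes and from 0 to 25 listed genes, the largest without the AGS parental array and, at 4623 and 18, without that of HGC-27. The additive fit then has no second parental array to disagree with the first.

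For MIST1 against parental cells, 454 genes and 3 listed genes were called. These were 65 and 0 with no floor, 75 and 1 with the mean of all probe sets, 827 and 9 with 4 arrays, and 0 and 0 with a floor at the median, no filter, no variance trend or no replicate block. With 1 array left out they ran from 453 to 5407 genes and from 4 to 26 listed genes, again largest without a parental array.

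For the response in HGC-27 minus AGS, 1394 genes and 9 listed genes became 116 and 0 with a floor at the median, 642 and 3 with no filter, 239 and 0 with no variance trend, and 0 and 0 when any transfected array was left out, which leaves 1 fewer degree of freedom. The median of -0.17 became -0.28 after quantile normalization.

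Between the lines, counts kept within 1.5 times, the median of -0.17 became -0.015 after quantile normalization, and with the mean of all probe sets SSR1 turned to 0.75 and HSPA5 to 0.24. Counts past the fold limit in both lines changed at 1.2-fold to 1 higher for MIST1 against the GFP control, to 1 higher and 7 lower for the GFP control against parental cells, and to 2 higher and 9 lower for MIST1 against parental cells. The last count of 1 lower became 0 at 2-fold and 2 with the mean of all probe sets, which also gave 1 lower for the GFP control against parental cells. Where not shown by the alternative's construction, the cause was not tested. Of 702 alternatives for single listed genes, 551 kept direction and call, 106 lost the call, 42 gained it and 3 turned direction.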
